A study of Mus musculus with 12 samples.

Results

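The genes described here are 8 writers and erasers of DNA methylation: Dnmt3a, Dnmt3b, Dnmt3l, Kdm1b, Dnmt1, Uhrf1, Tet1 and Tet2. They were chosen by name, with earlier results of these data known. Each was read through probe sets that the platform annotation maps to that gene alone, 20 of 45037 probe sets and 8 of 18194 genes. Its brightest probe set, by the mean of the 12 arrays, stands for the gene, and the others serve as a check. Total RNA of the developing testis of male mouse embryos was hybridised to Affymetrix mouse 430_2 arrays. On these a probe set is a group of short probes that reads 1 transcript, or several that share sequence. The M19 strain (129.MOLF-Chr 19) carries chromosome 19 of the MOLF strain on a 129 background, and 129/Sv, called 129 here, is the strain it was compared with. The 6 groups were M19 at E13.5, E15.5 and E17.5, where E counts days of embryonic development, and 129 at the same days, with 2 arrays each. Testes were pooled, 40 pairs for 2 arrays, so both arrays of a group may come from a single pool and the p-values may measure technical spread alone. Of the 8 genes none lies on chromosome 19.

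DNA methylation is a mark on cytosine, mostly where cytosine is followed by guanine (CpG), that helps to silence genes and transposons. Fetal germ cells lose nearly all of it and then gain it anew. In the male this gain comes before birth, when de novo methyltransferases act with the cofactor DNMT3L. In dividing cells, DNMT1 and UHRF1 copy the mark at each division. TET enzymes oxidise methylcytosine, a step towards its removal. PIWI proteins with small RNAs (piRNAs) guide new methylation to transposons in male germ cells.

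Values are log2 signal, so a difference of 1 is a factor of 2 in signal. The array medians ran from 8.10 to 8.27. Markers matched the labelled tissue in all groups: on single arrays the mean level ran from 10.03 to 11.35 over 9 germ cell markers, such as Ddx4 and Dazl, and from 10.72 to 11.07 over 8 Sertoli cell markers, such as Sox9 and Amh. Some arrays stood apart. The 8 skin, muscle and cartilage markers, among them Krt5, Myh3 and Col2a1, averaged 7.16 to 7.72 on 10 arrays and 10.40 and 10.45 on the 129 E15.5 arrays. An 18S control read 9.69 on the 129 E13.5 replicate 1 array and 6.88 to 8.38 on the others.

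CpG is where the mark mostly lies, and the 8 genes differ in how many lie before their own start. The table of RefSeq starts on build GRCm38.p6 held 15 windows of 250 bases for the 8 genes. Below are the stretches before the first annotated base of the 3 genes that changed most with stage and of Dnmt3b, the gene that differed between strains, with each CG in capitals. They are Dnmt3l at chr10:78042037-78042286 (+ strand), Kdm1b at chr13:47043249-47043372 (+ strand), Tet1 at chr10:62887470-62887574 (- strand) and Dnmt3b at chr2:153649199-153649410 (+ strand).
Dnmt3l: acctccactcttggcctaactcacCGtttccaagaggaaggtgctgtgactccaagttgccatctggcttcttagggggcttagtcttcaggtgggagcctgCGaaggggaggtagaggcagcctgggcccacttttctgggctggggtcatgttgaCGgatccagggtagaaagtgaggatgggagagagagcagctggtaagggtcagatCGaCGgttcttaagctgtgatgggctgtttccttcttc
Kdm1b: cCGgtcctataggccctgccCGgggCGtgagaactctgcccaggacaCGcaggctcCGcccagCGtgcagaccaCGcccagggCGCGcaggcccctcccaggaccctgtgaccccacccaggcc
Tet1: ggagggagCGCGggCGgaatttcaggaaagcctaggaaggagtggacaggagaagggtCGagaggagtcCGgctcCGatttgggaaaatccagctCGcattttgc
Dnmt3b: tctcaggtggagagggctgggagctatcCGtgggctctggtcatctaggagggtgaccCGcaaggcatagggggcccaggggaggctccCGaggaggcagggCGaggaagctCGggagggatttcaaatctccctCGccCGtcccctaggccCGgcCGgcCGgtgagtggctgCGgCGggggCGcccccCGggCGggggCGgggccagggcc
Dnmt3l has 5 CpG in its 250 bases, and 55.6% of the 32851 RefSeq windows of that length hold as many or more. Its 2 further annotated starts have 4 and 3. The whole 250-base windows of Kdm1b, Dnmt3b and Tet1 hold 22, 21 and 15, counts reached by 14.8%, 16.3% and 27.3% of windows, and the stretches printed above hold 9, 16 and 7. Tet2 has the most, 51, which 0.1% of windows reach, in a window that lies inside the annotated span of the gene. The motif CG reads the same on both strands, and these counts say nothing of whether a CpG was methylated in these cells.

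**Figure D1:**
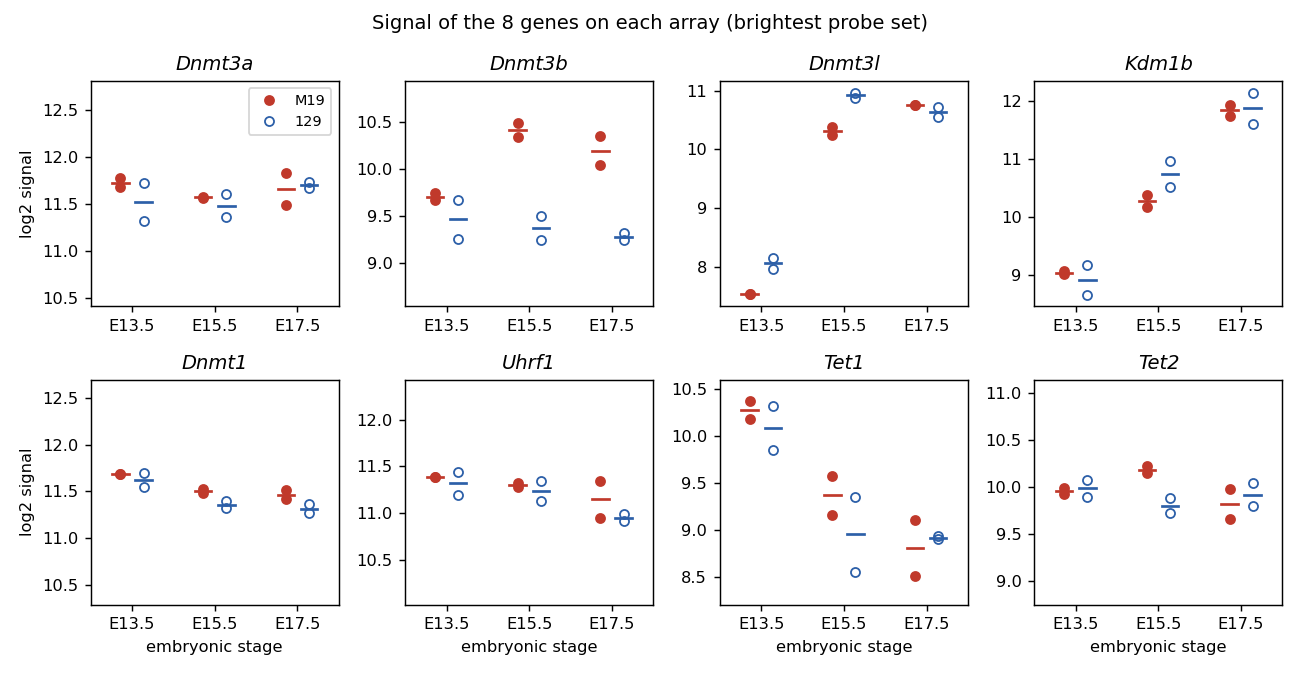
Log2 signal of the brightest probe set of each gene (y axis) at each embryonic stage (x axis), with 1 point per array, filled for M19 and open for 129, and a bar at the mean of 2 arrays. Dnmt3l and Kdm1b climb by 2.57 to 3.21 log2 units across the stages in both strains, Tet1 declines, and Dnmt3b separates the strains at E15.5 and E17.5.

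Among the 8 genes the largest stage difference in M19 was the gain of Dnmt3l over the span, and in 129 that of Kdm1b. Dnmt3l is the catalytically inactive cofactor that stimulates the de novo methyltransferases. Dnmt3l (chromosome 10, bases 78042287 to 78063622) read 7.54 and 7.55 at E13.5, 10.38 and 10.25 at E15.5 and 10.75 and 10.75 at E17.5 in M19. In 129 it read 8.15 and 7.97 at E13.5, 10.96 and 10.87 at E15.5 and 10.55 and 10.72 at E17.5. The E13.5 arrays lay below all others in both strains, with no overlap. From E13.5 to E15.5, Dnmt3l rose by 2.77 ± 0.12 (SE, n = 2 each) in M19, a factor of 6.84 (adjusted p = 4.16e-07), and by 2.85 ± 0.12 in 129, a factor of 7.23 (adjusted p = 5.68e-07). Each of these calls held in all 12 fits that left out 1 array. In such fits, leaving out an array outside the groups compared does not alter the difference. It alters only the estimate of the spread and the adjusted p. Between the same stages 5 of 9 germ cell markers rose and 2 fell in M19, and 4 rose and 2 fell in 129. Their part in the Dnmt3l gain was not tested. On these bulk samples, more cells of a type and more RNA per cell cannot be told apart. The gene has a single probe set, so no second reading of it exists here.

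Between E15.5 and E17.5 no change of Dnmt3l passed the test: the difference was 0.44 ± 0.12 in M19 (adjusted p = 0.0875) and -0.28 ± 0.12 in 129 (adjusted p = 0.330). Over the whole span, E17.5 against E13.5, Dnmt3l was 9.27-fold higher in M19 and 5.95-fold higher in 129. Its strain difference, M19 minus 129, was -0.52 ± 0.12 at E13.5 (adjusted p = 0.564), -0.60 ± 0.12 at E15.5 (adjusted p = 0.0573) and 0.12 ± 0.12 at E17.5 (adjusted p = 1.00). M19 arrays were lower than 129 arrays at E13.5 and at E15.5 without overlap, yet these differences did not pass the adjustment over 45037 probe sets. The E15.5 difference passed without 129 E13.5 replicate 1 or without replicate 2 of that group (adjusted p = 0.0302 in both fits), and the mean difference over the 3 stages, -0.34 ± 0.07 (adjusted p = 0.0887), passed without the second of these arrays (adjusted p = 0.0461). So did the M19 late step without either (adjusted p = 0.0483 in both fits). The late step differed between strains by 0.72 ± 0.17 (adjusted p = 0.295), and the test for a strain effect that depends on stage gave an adjusted p of 0.420.

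Kdm1b, a flavin-dependent demethylase of histone H3 lysine 4 that the mouse oocyte needs to set maternal imprints, climbed at both steps. Kdm1b (chromosome 13, bases 47043373 to 47085279) read 9.02 and 9.07 at E13.5, 10.38 and 10.18 at E15.5 and 11.74 and 11.94 at E17.5 in M19. In 129 the readings were 8.67 and 9.17 at E13.5, 10.52 and 10.97 at E15.5 and 12.14 and 11.61 at E17.5. Within each strain no 2 stages overlapped. The early step was 1.24 ± 0.22 in M19, a factor of 2.36 (adjusted p = 0.00606), and 1.83 ± 0.22 in 129, a factor of 3.55 (adjusted p = 5.46e-04). At the late step the gain was 2.93-fold in M19 (adjusted p = 0.00455) and 2.19-fold in 129 (adjusted p = 0.0270), and over the span it was 6.94-fold in M19 and 7.75-fold in 129. No strain difference passed the test at any stage (E15.5: -0.46 ± 0.22, adjusted p = 0.686), nor did the early step differ (-0.58 ± 0.31, adjusted p = 1.00). Over the span 4 of 4 measured fetal Leydig cell markers rose in both strains, where 10.2% of all genes rose in M19 and 6.9% in 129. Their mean level was 13.20 and 13.26 at E17.5, against 10.83 and 10.89 at E13.5, in M19. In 129 it was 13.03 and 13.11, against 11.16 and 11.22. At the late step, where Kdm1b rose too, 1 of these 4 was called in each strain. Of 8 Sertoli cell markers, 2 rose and 2 fell over the span in each strain. The span medians of the germ cell and endothelium markers were -0.56 and -0.29 in M19 and -0.37 and -0.26 in 129. Of 6 peritubular and mesenchyme markers, 5 rose over the span in both strains, with mean levels of 12.42 and 12.50 at E17.5, against 11.54 and 11.50 at E13.5, in M19, and 12.51 and 12.49, against 11.63 and 11.62, in 129. The part of any of these lists in the Kdm1b gain was not tested.

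Leaving out 1 array changed some of these Kdm1b calls, while the span calls held in all 12 such fits. The 129 late step itself stayed at 1.13 without either M19 E13.5 array, since neither enters that comparison. The M19 early step lost its call without M19 E13.5 replicate 1 (adjusted p = 0.0611), M19 E13.5 replicate 2 (adjusted p = 0.0520) or M19 E15.5 replicate 1 (adjusted p = 0.0785), and the M19 late step without M19 E15.5 replicate 2 (adjusted p = 0.0571). The 129 late step lost it without 129 E17.5 replicate 1 (adjusted p = 0.210), 129 E15.5 replicate 1 (adjusted p = 0.155) or either M19 E13.5 array (adjusted p = 0.0539).

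Tet1, the dioxygenase that oxidises methylcytosine, went the other way. Tet1 (chromosome 10, bases 62804570 to 62887469) read 10.18 and 10.37 at E13.5, 9.58 and 9.16 at E15.5 and 8.51 and 9.10 at E17.5 in M19. In 129 it read 9.85 and 10.32 at E13.5, 8.55 and 9.35 at E15.5 and 8.90 and 8.93 at E17.5. The E13.5 arrays lay above all later arrays of their strain, and the 2 later stages of 129 overlapped. Across the span Tet1 fell by 1.47 ± 0.27 in M19, a 2.77-fold lower signal (adjusted p = 0.00586), and by 1.17 ± 0.27 in 129, a 2.25-fold lower signal (adjusted p = 0.0234). The early step passed in 129 (-1.14 ± 0.27, adjusted p = 0.0406) and not in M19 (-0.91 ± 0.27, adjusted p = 0.0946), and the steps differed by 0.23 ± 0.39 (adjusted p = 1.00). The 129 step rests on the E15.5 arrays that stood apart: all 8 skin, muscle and cartilage markers rose at it, with a median difference of 2.78, while in M19 2 fell and 0 rose, with a median of -0.05. What part they had in the Tet1 step was not tested. No strain difference of Tet1 passed the test, and at E15.5 the difference of 0.42 had a 95% interval of -0.19 to 1.02. Over the same span 3 of 5 measured red blood cell markers fell and 1 rose in both strains, and the mean of the list was 8.05 and 8.07 at E17.5, against 10.42 and 10.43 at E13.5, in M19, and 8.13 and 8.04, against 10.41 and 10.38, in 129. Of 9 germ cell markers, 4 fell and 4 rose in M19 (median -0.56), and 3 fell and 3 rose in 129 (median -0.37). Of 5 endothelium markers, 2 fell and 1 rose in M19 (median -0.29), and 1 fell and 1 rose in 129 (median -0.26). The part of any of these lists in the Tet1 values was not tested.

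The probe sets of Tet1 disagreed. The third in brightness followed the first, with a span difference of -1.79 ± 0.26 in M19 (adjusted p = 0.00129) and -1.18 ± 0.26 in 129 (adjusted p = 0.0170). The second and the fourth gave span differences between -0.03 and 0.06, with adjusted p between 0.818 and 0.946. Which transcript forms each probe set reads was not analysed here. The 129 early step is the least secure Tet1 call: it was lost in 8 of 12 fits that left out 1 array, with adjusted p of 0.268 without 129 E15.5 replicate 1, 0.122 without 129 E13.5 replicate 2, 0.0712 without either 129 E17.5 array, 0.0661 without an M19 E13.5 array and 0.0573 without an M19 E15.5 array. In M19 the early step gained a call without either 129 E15.5 array (adjusted p = 0.0431). The M19 span lost its call without M19 E13.5 replicate 2 (adjusted p = 0.0617) or M19 E17.5 replicate 1 (adjusted p = 0.0611). In 129 the span lost it without 129 E13.5 replicate 2 (adjusted p = 0.0933), 129 E17.5 replicate 1 (adjusted p = 0.125) or 129 E17.5 replicate 2 (adjusted p = 0.116).

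**Figure D2:**
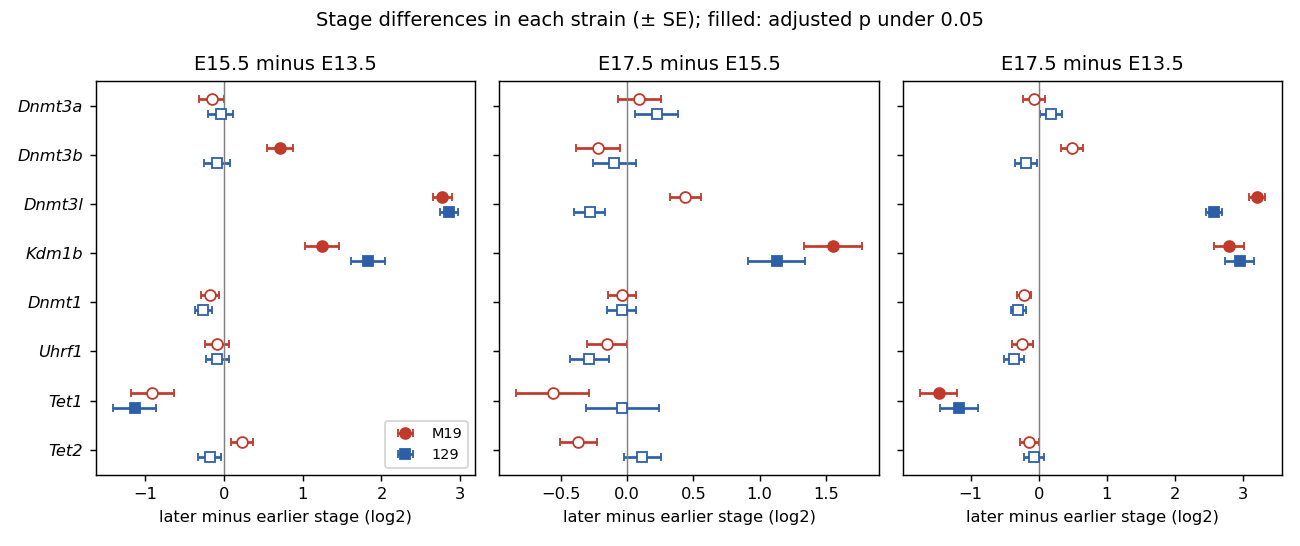
Log2 difference between stages, later minus earlier (x axis), for each gene (y axis) in M19 (circles, upper) and 129 (squares, lower), with the standard error as a bar and filled symbols at an adjusted p under 0.05. Dnmt3l and Kdm1b lie far to the right at the early step and over the span, and Tet1 to the left.

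Dnmt3b, 1 of the 2 active de novo methyltransferases among the 8 genes, was the only one of the 8 with a called strain difference. Dnmt3b (chromosome 2, bases 153649411 to 153687730) read 9.67 and 9.74 at E13.5, 10.49 and 10.33 at E15.5 and 10.04 and 10.34 at E17.5 in M19. In 129 it read 9.25 and 9.67 at E13.5, 9.24 and 9.50 at E15.5 and 9.24 and 9.31 at E17.5. M19 arrays lay above 129 arrays without overlap at E15.5 and E17.5, and at E13.5 the strains overlapped. M19 was higher by 1.04 ± 0.16 at E15.5, a factor of 2.06 (adjusted p = 0.0177, 95% interval 0.68 to 1.40). Averaged over the 3 stages it was higher by 0.73 ± 0.09 (adjusted p = 0.00542). At E17.5 the difference of 0.92 ± 0.16 had an adjusted p of 0.144, and at E13.5 that of 0.24 ± 0.16 had one of 1.00. The difference grew by 0.80 ± 0.23 from E13.5 to E15.5 (adjusted p = 0.699).

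At E15.5 and E17.5 the second Dnmt3b probe set was also higher in M19 by smaller amounts, which did not pass the test. It read 9.19 and 8.87 in M19 at E15.5, against 8.55 and 8.84 in 129, and 8.84 and 9.09 in M19 at E17.5, against 8.38 and 8.45 in 129. Its strain differences were 0.33 ± 0.15 at E15.5 (adjusted p = 0.670) and 0.55 ± 0.15 at E17.5 (adjusted p = 1.00). At E13.5 its difference was -0.03 ± 0.15, and averaged over the 3 stages it was 0.29 ± 0.09 (adjusted p = 0.611). The call over the 3 stages was thus made on the brighter probe set alone. Within M19, Dnmt3b rose by 0.71 ± 0.16 from E13.5 to E15.5 (adjusted p = 0.0297), while in 129 the same step was -0.09 ± 0.16 (adjusted p = 0.894).

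At E15.5, the stage of the Dnmt3b call, all 8 skin, muscle and cartilage markers were lower in M19, with differences between -4.05 and -2.63, and 2 of 9 germ cell markers were higher in M19, Dppa5a by 1.61 ± 0.11 (adjusted p = 4.57e-05) and Dppa3 by 0.82 ± 0.12 (adjusted p = 0.0140). At E17.5 the skin, muscle and cartilage list averaged 7.71 and 7.72 in M19 and 7.66 and 7.63 in 129. The Dnmt3b difference of 0.92 at that stage was not called (adjusted p = 0.144). The part of these markers in the Dnmt3b differences was not tested. With all E15.5 arrays left out, an alternative added after the data were seen, the mean strain difference was 0.58 (adjusted p = 0.390). The E15.5 call was lost without M19 E15.5 replicate 1 (adjusted p = 0.220), M19 E15.5 replicate 2 (adjusted p = 0.114) or 129 E15.5 replicate 1 (adjusted p = 0.106), and the E17.5 difference gained one without either 129 E13.5 array (adjusted p = 0.0443). The call over the 3 stages held in all 12 such fits. The rise within M19 was lost when any of the 4 arrays it compares was left out (adjusted p = 0.101 to 0.228), as it was on leaving out a 129 E17.5 array (adjusted p = 0.0513), and the M19 span of Dnmt3b, 0.49 ± 0.16 (adjusted p = 0.0789), passed without either 129 E13.5 array (adjusted p = 0.0323).

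**Figure D3:**
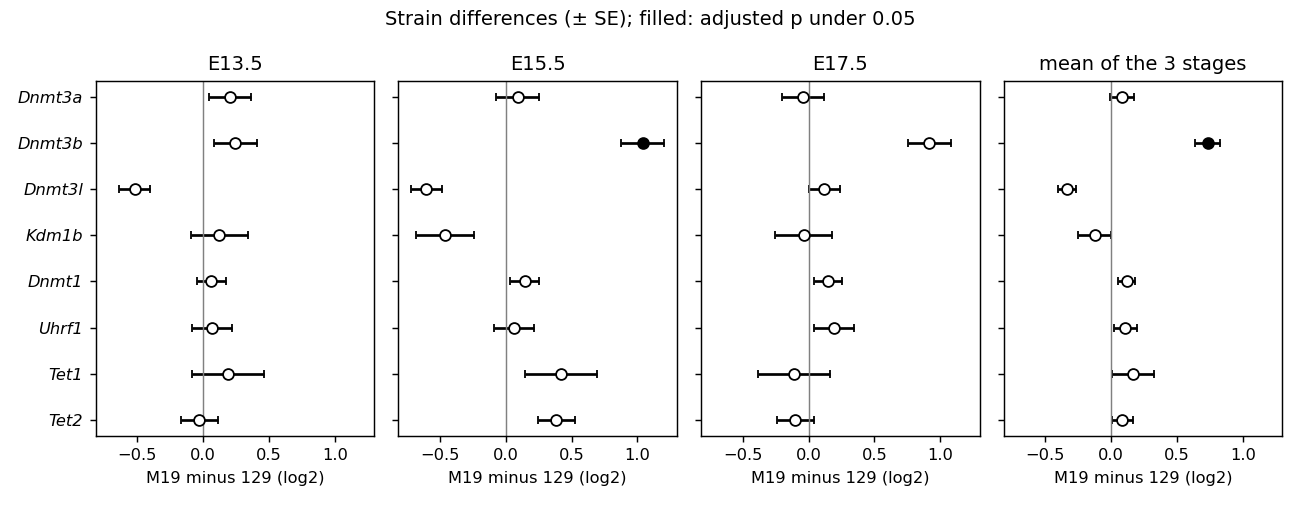
Log2 difference M19 minus 129 (x axis) of each gene (y axis) at E13.5, E15.5 and E17.5 and averaged over the stages, with the standard error as a bar and filled symbols at an adjusted p under 0.05. Dnmt3b alone is filled, at 1.04 at E15.5 and 0.73 averaged over the stages.

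Dnmt3a, the other active de novo methyltransferase among these genes, gave answers that differed between probe sets. Dnmt3a (chromosome 12, bases 3801559 to 3914443) has 5 probe sets. On the brightest it read 11.67 and 11.77 at E13.5, 11.57 and 11.57 at E15.5 and 11.49 and 11.83 at E17.5 in M19, and 11.32 and 11.72, 11.36 and 11.60, and 11.73 and 11.67 in 129 at the same days. The group means spanned 0.25, and no difference passed the test. On the third, the readings were 9.90 and 9.98 at E13.5, 11.19 and 11.17 at E15.5 and 10.32 and 10.75 at E17.5 in M19, against 10.08 and 10.27, 11.02 and 11.24, and 10.69 and 10.91 in 129. This probe set peaked at E15.5 in both strains. It rose 2.35-fold in M19 (adjusted p = 7.88e-04) and 1.94-fold in 129 (adjusted p = 0.00496) from E13.5 to E15.5, and the fourth rose 1.98-fold in M19 (adjusted p = 9.07e-04) and 2.38-fold in 129 (adjusted p = 1.99e-04). The fourth then fell by 0.59 ± 0.13 in 129 from E15.5 to E17.5 (adjusted p = 0.0464). Over the span the third and the fourth rose by 0.59 ± 0.16 and 0.48 ± 0.13 in M19 (adjusted p = 0.0324 and 0.0332). In 129 they rose by 0.62 ± 0.16 and 0.66 ± 0.13 (adjusted p = 0.0331 and 0.00846). The second and the fifth were highest at E17.5 in 129, and no comparison of either passed. Their 129 span differences were 0.46 ± 0.14 (adjusted p = 0.0641) and 0.40 ± 0.12 (adjusted p = 0.0681). Of the RefSeq starts of Dnmt3a that have a window here, the third lies 84764 bases downstream of the first. The annotated gene begins upstream of all of them. Its annotated transcripts thus begin at different places, and which of them each probe set reads was not analysed here.

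**Figure D4:**
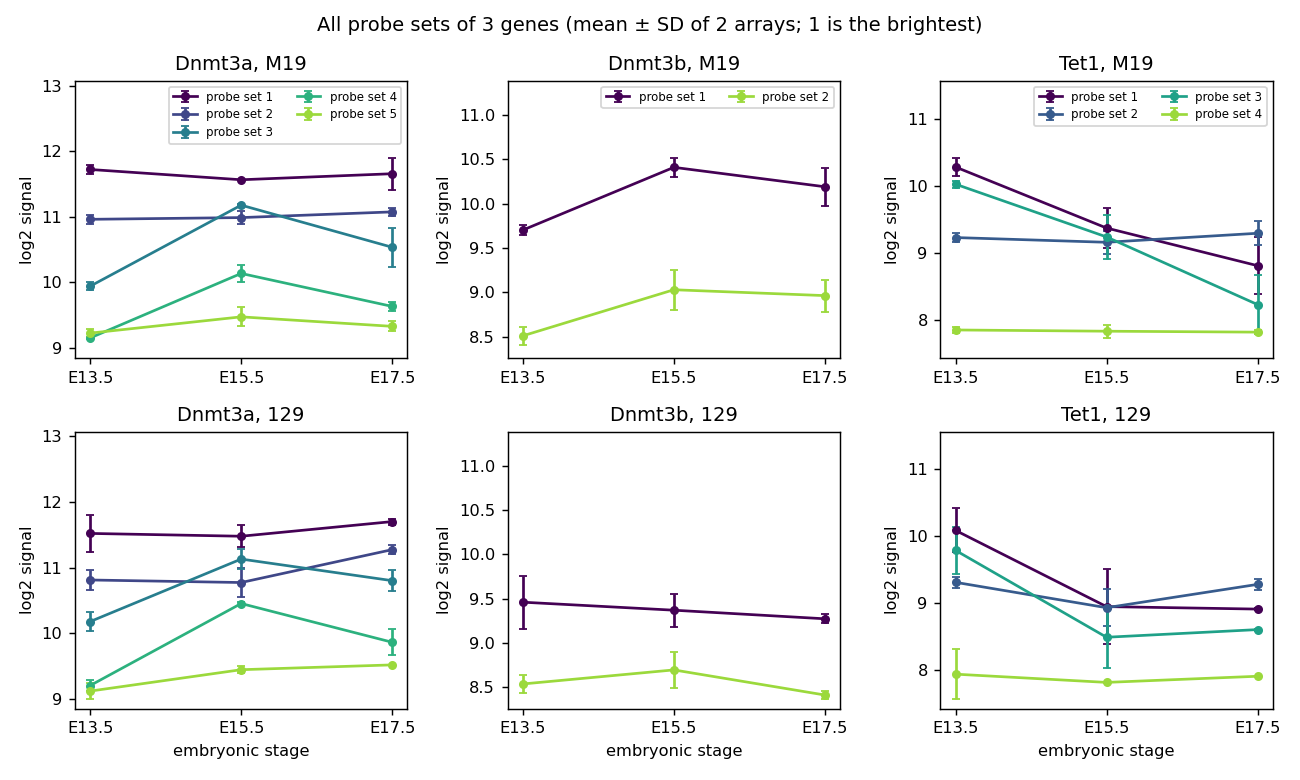
Log2 signal (y axis) of every probe set of Dnmt3a, Dnmt3b and Tet1 by stage (x axis), M19 above and 129 below, as the mean of 2 arrays with the SD as a bar, numbered by brightness. Probe sets 3 and 4 of Dnmt3a peak at E15.5 while probe set 1 stays level, and probe sets 1 and 3 of Tet1 decline while 2 and 4 stay level.

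The maintenance pair moved little. Dnmt1 (chromosome 9, bases 20907206 to 20959888), which copies methylation onto the new strand, read 11.68 and 11.68 at E13.5, 11.52 and 11.49 at E15.5 and 11.51 and 11.42 at E17.5 in M19. In 129 it read 11.54 and 11.70, 11.32 and 11.40, and 11.27 and 11.37 at the same days. On this probe set E13.5 was highest in both strains, and no step passed the test (span: -0.22 ± 0.11 in M19, adjusted p = 0.223, and -0.30 ± 0.11 in 129, adjusted p = 0.132). The 2 dimmer probe sets of Dnmt1 fell over the span in both strains, by 0.35 ± 0.10 and 0.46 ± 0.13 in M19 (adjusted p = 0.0494 and 0.0424) and by 0.49 ± 0.10 and 0.51 ± 0.13 in 129 (adjusted p = 0.0128 and 0.0367). Both carry the suffix _x_at, which Affymetrix gives to probe sets that may also bind other transcripts. Over the same span the mean level of 9 proliferation genes was 11.45 and 11.50 at E17.5, against 11.72 and 11.70 at E13.5, in M19, and 11.40 and 11.41 at E17.5, against 11.73 and 11.71 at E13.5, in 129. The part of proliferation in the Dnmt1 values was not tested.

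Uhrf1 (chromosome 17, bases 56303337 to 56323486), which binds hemimethylated DNA and recruits DNMT1, read 11.39 and 11.39, 11.28 and 11.32, and 10.95 and 11.35 in M19 and 11.20 and 11.45, 11.13 and 11.35, and 10.99 and 10.91 in 129 at E13.5, E15.5 and E17.5. In M19 the 2 later stages overlapped, in 129 the 2 earlier ones, and no comparison passed the test on either of its probe sets. The largest stage difference on the brighter was -0.37 ± 0.15 over the span in 129 (adjusted p = 0.183, 95% interval -0.70 to -0.04).

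Tet2 (chromosome 3, bases 133463677 to 133545136), a second methylcytosine dioxygenase, read 9.98 and 9.93, 10.22 and 10.15, and 9.66 and 9.97 in M19 and 9.90 and 10.07, 9.72 and 9.88, and 10.04 and 9.79 in 129 at the same days. M19 was above 129 at E15.5 without overlap, by 0.38 ± 0.14, which did not pass the test (adjusted p = 0.503), and no other comparison of Tet2 passed. The second Tet2 probe set overlapped there, with 9.24 and 9.10 in M19, against 8.97 and 9.23 in 129, a difference of 0.07 ± 0.15 (adjusted p = 0.985).

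The 8 genes were chosen with earlier results of these data known, so their counts cannot show an excess over all genes. By the brightest probe set, 3 of 8 genes were called at the early step in M19: Dnmt3l, Kdm1b and Dnmt3b, all higher. In 129, 3 of 8 were called: Dnmt3l and Kdm1b higher and Tet1 lower. Of all genes, 7.4% were called at this step in M19 and 6.3% in 129. At the late step Kdm1b alone was called, 1 of 8 in each strain, against 3.23% of all genes in M19 and 2.42% in 129. Over the span the same 3 genes, Dnmt3l, Kdm1b and Tet1, were called in both strains, against 15.4% of all genes in M19 and 10.9% in 129. Between strains the count was 0 of 8 at E13.5, 1 of 8 at E15.5, 0 of 8 at E17.5 and 1 of 8 over the 3 stages, where 0.033%, 0.682%, 0.0934% and 0.462% of all genes were called. At an unadjusted p under 0.05 those counts were 1, 3, 1 and 2. For the difference between strains in the early step, in the late step and for any dependence of the strain effect on stage, 0 of 8 genes were called by limma, with 1, 2 and 2 at an unadjusted p under 0.05, and 0.192%, 0.17% and 0.203% of all genes were called.

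Other genes of the pathway were read from lists chosen with earlier results of these data known. Among 8 genes of piRNA-directed methylation, 8 rose at the early step in M19, with a median difference of 3.12 against 0.05 over all genes, and 7 rose in 129, with a median of 2.50 against -0.03, where 5.74% and 4.46% of all genes rose. Piwil4, the nuclear PIWI protein of fetal male germ cells, read 5.57 and 5.66 at E13.5, 11.25 and 11.14 at E15.5 and 10.69 and 11.05 at E17.5 in M19, and 6.75 and 7.65, 11.27 and 11.54, and 10.96 and 10.32 in 129. Its early gain was 5.58 ± 0.28 in M19 and 4.21 ± 0.28 in 129. Morc1, an ATPase required for transposon silencing in male germ cells, read 6.75 and 6.80, 11.60 and 11.52, and 10.26 and 10.49 in M19 at E13.5, E15.5 and E17.5, and 7.98 and 8.47, 11.40 and 11.57, and 10.15 and 10.17 in 129. Morc1 was the only gene of the pathway lists called between strains, lower by 1.45 ± 0.16 in M19 at E13.5 (adjusted p = 0.00647). Tdrd9, a helicase of the pathway, gained 3.46 ± 0.12 in M19 and 3.28 ± 0.12 in 129 at the early step. Pld6, a mitochondrial protein of piRNA production, rose in M19 by 0.48 ± 0.11 (adjusted p = 0.0277). At the late step Tdrd9 rose further in M19 by 0.73 ± 0.12 (adjusted p = 0.0131), Morc1 fell by 1.18 ± 0.16 in M19 and by 1.33 ± 0.16 in 129, and Mov10l1, the helicase that starts piRNA production, fell by 0.65 ± 0.14 in 129 (adjusted p = 0.0428). Over the span 7 of the 8 genes rose in both strains, against 10.2% of all genes in M19 and 6.9% in 129, led by Piwil4 (5.25 ± 0.28), Tdrd9 (4.19 ± 0.12) and Morc1 (3.60 ± 0.16) in M19 and by Piwil4 (3.44 ± 0.28), Tdrd9 (3.31 ± 0.12) and Mael (2.42 ± 0.15) in 129.

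**Figure D5:**
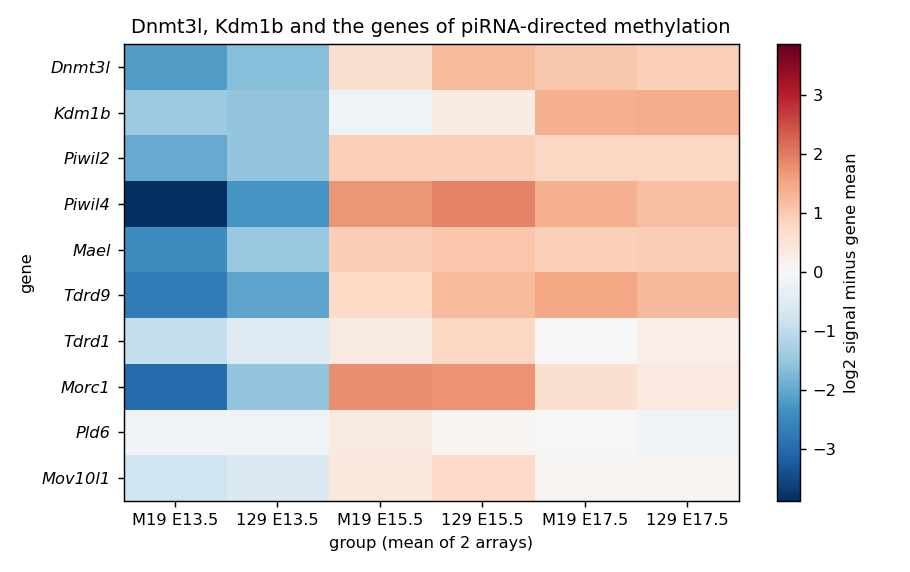
Group means of log2 signal minus each gene's own mean over the groups (colour) for Dnmt3l, Kdm1b and the 8 genes of piRNA-directed methylation (rows), in M19 and 129 at each stage (columns). All E13.5 cells are below the gene mean for Dnmt3l and Kdm1b and for all 8 list genes.

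Genes whose promoters are methylated in somatic tissues and active in germ cells moved at the same step. Of 11 such genes, 10 rose at the early step in M19 and 8 in 129, where 5.74% and 4.46% of all genes rose. Mael, which also belongs to the piRNA list and the germ cell markers, rose by 3.37 ± 0.15 in M19 and 2.55 ± 0.15 in 129, Taf7l, a germ cell transcription factor subunit, by 3.39 ± 0.27 and 1.88 ± 0.27, and the synaptonemal complex gene Sycp3 by 2.60 ± 0.21 and 1.44 ± 0.21. Brdt, a bromodomain protein of the testis, rose by 2.10 ± 0.13 in M19 and 1.70 ± 0.13 in 129. Sycp1, of the same complex as Sycp3, gained 2.11 ± 0.11 in M19 and 1.02 ± 0.11 in 129. At the late step Sycp1 fell by 1.39 ± 0.11 in M19 and by 0.87 ± 0.11 in 129, and in M19 Sycp3 fell by 1.46 ± 0.21 (adjusted p = 0.00485) and Dazl by 0.69 ± 0.14 (adjusted p = 0.0284). Over the span 10 of the 11 genes rose in M19 and 8 in 129, against 10.2% and 6.9% of all genes, while Dazl, an RNA-binding protein of germ cells, fell by 0.56 ± 0.14 in M19 (adjusted p = 0.0237). The mean of the 9 germ cell markers was 10.50 and 10.53 at E13.5, 11.35 and 11.23 at E15.5 and 10.03 and 10.19 at E17.5 in M19, and 10.63 and 10.80, 10.82 and 11.05, and 10.03 and 10.04 in 129. These markers share Ddx4, Dazl and Mael with the 11 genes, and Mael and Tdrd1 with the piRNA list. In M19 the skin, muscle and cartilage list averaged 7.41 and 7.40 at E13.5 and 7.21 and 7.16 at E15.5. In 129 it averaged 7.54 and 7.42 at E13.5 and 10.40 and 10.45 at E15.5. The part of either list in the rise of the germ cell genes was not tested.

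Some maintenance partners were lower late. Of 9, 2 fell over the span in M19 and 3 in 129, with 0 higher, and the list median was -0.30 in M19 and -0.29 in 129, against 0.10 and 0.01 over all genes, of which 5.26% and 4% fell. The 9 measured proliferation genes, which share Pcna with this list, had span medians of a like size, -0.24 in M19 and -0.29 in 129, with 1 called lower in each strain. What part they had in the values of the partners was not tested. Hells, the chromatin remodeller that repeats need for their methylation, read 11.86 and 11.88 at E13.5, 11.75 and 11.64 at E15.5 and 10.95 and 11.24 at E17.5 in M19, and 11.81 and 11.94, 10.64 and 11.08, and 11.13 and 10.84 in 129. At the early step Hells fell by 1.01 ± 0.17 in 129 (adjusted p = 0.00493), and in M19 the step was not called. Its span difference was -0.78 ± 0.17 in M19 (adjusted p = 0.0118) and -0.89 ± 0.17 in 129 (adjusted p = 0.00706). Usp7, a deubiquitinase that binds DNMT1, fell by 0.39 ± 0.11 in M19 and 0.43 ± 0.11 in 129, and Cdca7, which works with HELLS, by 0.41 ± 0.11 in 129 (adjusted p = 0.0498). Dmap1, a DNMT1-associated protein, rose at the early step by 0.50 ± 0.12 in M19 and 0.55 ± 0.12 in 129, and fell at the late step by 0.56 ± 0.12 in M19 and 0.67 ± 0.12 in 129.

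Of 8 de novo partners and chromatin modifiers, Ehmt2, a histone H3 lysine 9 methyltransferase, rose over the span in M19 by 0.85 ± 0.17 (adjusted p = 0.00813) and the other 7 did not pass, nor did any in 129. That is 1 of 8, against 10.2% of all genes higher. Of 13 genes of active demethylation and base excision, the uracil glycosylases Smug1 and Ung fell over the span in M19 by 0.84 ± 0.18 (adjusted p = 0.0115) and 0.52 ± 0.13 (adjusted p = 0.0216), the ligase Lig3 fell at the late step in M19 by 0.77 ± 0.16 (adjusted p = 0.0311), and none passed in 129. The span count of 2 of 13 in M19 is close to the share of all genes called over the span in either direction, 15.4%. Of 6 methyl-CpG readers, Zbtb4 rose over the span in 129 by 0.98 ± 0.17 (adjusted p = 0.0051). Of 5 methyl donor genes, 3 were called over the span in each strain, 1 higher and 2 lower, against 15.4% of all genes called in M19 and 10.9% in 129. Mtr, the methionine synthase, rose at the early step by 1.28 ± 0.11 in M19 and 1.36 ± 0.11 in 129, and over the span by 0.93 ± 0.11 in M19 and 0.64 ± 0.11 in 129. Ahcy, which clears S-adenosylhomocysteine, fell over the span by 0.72 ± 0.10 in M19 and 0.77 ± 0.10 in 129. Shmt1, a serine hydroxymethyltransferase, fell over the span by 0.49 ± 0.13 in M19 and 0.56 ± 0.13 in 129. At the late step Mtr fell by 0.72 ± 0.11 in 129, and Shmt1 by 0.68 ± 0.13 and Mat2b, a subunit of methionine adenosyltransferase, by 0.58 ± 0.13 in M19. Ahcy fell already at the early step, by 0.46 ± 0.10 in M19 and 0.62 ± 0.10 in 129.

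For the 4 members whose group means span over 1 log2 unit, the 3 genes with the most similar values were found by the root mean square difference over the 12 arrays after each gene was centred on its mean. Nearest to Dnmt3l were Sohlh1 (0.21), Tex15 (0.25) and Mael (0.25), all known from male germ cells. Sohlh1, a germ cell transcription factor, averaged 6.73, 9.81 and 9.69 in M19 and 7.18, 9.99 and 9.55 in 129 at E13.5, E15.5 and E17.5. Nearest to Kdm1b were Myh11 (0.23), C1qtnf3 (0.25) and Spock2 (0.25), of which Myh11 is a smooth muscle myosin and was listed as a marker of peritubular cells. Tet1 was nearest to Tox3 (0.12), Lrrfip1 (0.14) and Wt1os (0.15). Nearest to Dnmt3b were Pyroxd2 (0.18), Dusp5 (0.21) and Sfxn4 (0.26), which all lie on chromosome 19, whereas Dnmt3b lies on chromosome 2. Chromosome 19 is the one by which the strains differ by design. Its share among all genes with a strain difference was not analysed here, so no link to Dnmt3b is drawn. Dusp5, a phosphatase of MAP kinases, averaged 9.32, 10.14 and 9.82 in M19 and 9.11, 9.33 and 9.29 in 129. The likeness is a description over arrays that all genes share.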

How the data were processed

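Gene expression was read on 12 Affymetrix mouse 430_2 arrays, 6 groups of 2. The authors deposited 1 value for each of 45101 probe sets per array, and these deposited values, which lie between 0 and 15.03, are read as log2 signal. Log base, summary method and normalization are not given in the sources used here. No depth exists for arrays, and their number limits the precision. The 64 control probe sets were left out. The platform annotation gave 34945 probe sets 1 gene, 932 several and 9160 none. RefSeq (GRCm38.p6) matched 34741.

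Differences, M19 minus 129 or later minus earlier stage, were tested two-sided with limma 3.58.1 in R 4.3.3 (lmFit with the 6 group means, eBayes, 6 residual and 4.82 prior degrees of freedom) over all 45037 probe sets, with a call at an adjusted p (Benjamini-Hochberg) under 0.05. The fit was tested on simulated data with known strain differences at E15.5. The simulated noise was independent between arrays, around each probe set's mean, with no stage effect and no shared pool. It recovered 7.5% of differences of 0.5, 80.6% of differences of 1 and 100% of differences of 2. Of its 130 calls, 5 were false, a share that need not hold for the real arrays. Most differences of 0.5 were thus missed, so a small difference that did not pass is not shown to be absent. Annotation and plots used Python 3.11.15 with pandas 2.3.3 and matplotlib 3.10.9. Members, lists and tests were chosen with earlier results of these data known. All members are named, as are list genes called between strains or among the 3 largest called per list and step. Some listed genes, among them Ctcfl, Tdg, Mat2a and Nanos2, were not analysed here. Alternatives were quantile normalization, median centring, dim probe sets left out, eBayes with trend and robust, a replicate block, each gene's mean over its probe sets, the 4 arrays compared alone and leaving out each array.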

Additional observations from a re-analysis of the deposited data

Results flagged for a closer look

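The gain of Morc1 from E13.5 to E15.5 differed between strains. It was larger by 1.52 ± 0.22 in M19 (interaction term in limma, adjusted p = 0.0282), with M19 lower than 129 at E13.5 (6.75 and 6.80, against 7.98 and 8.47). The gain of Sycp1 at the same step was larger by 1.09 ± 0.16 in M19 (adjusted p = 0.0256), with 9.35 and 9.22 at E15.5 in M19, against 8.65 and 8.76 in 129. Both genes belong to lists chosen with earlier results known, and both comparisons include the 129 E15.5 arrays with high skin, muscle and cartilage markers and the 129 E13.5 array with the high 18S control, whose part was not tested.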

How the results depend on the processing

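Counts of the 8 genes called are given here against the count in the report. For the strain difference at E15.5 (1 called), 2 were called with quantile normalization, with dim probe sets left out and with eBayes trend and robust, and leaving out 1 array gave 0 to 2. Over the 3 stages (1), each gene's mean over its probe sets gave 2, and leaving out all E15.5 arrays, chosen after the data were seen, gave 0. Leaving out 1 array gave 1 to 2 over the stages, 0 to 1 at E17.5 (0), 1 to 4 for the early step in M19 (3), 2 to 3 in 129 (3), 0 to 2 for the late step in M19 (1) and 0 to 1 in 129 (1). For the late step in M19, 2 were called with quantile normalization, with dim probe sets left out and with the mean of all probe sets. In 129, 0 were called with the 4 arrays compared alone. Over the span (3 in each strain), the mean of all probe sets gave 6 in M19 and 5 in 129. That mean also turned the early step of Dnmt3a to 0.47 in M19 and 0.49 in 129 (adjusted p = 0.0261 and 0.0233), since probe sets 3 and 4 rose. Over all probe sets, settings moved the counts of calls by more than 1.5 times: the strain difference at E15.5 had 258 calls, and 84 to 351 under the alternatives. The main fit did not pair the samples by replicate number. Over 15 pairs of groups the correlation of same-numbered deviations ran from -0.37 to 0.54 with a median of 0.01. Some groups thus shared array deviations, whose source was not tested. A fit with the replicate block called 1 gene at E15.5 and moved no count of the 8 genes.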
